A study of Mus musculus with 12 samples.

Results

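The 7 genes described here, Fhl2, Hbegf, Synpo2, Fam83g, Ptpre, Arhgap22 and Ankrd33b, were picked because LPS (lipopolysaccharide, a component of the outer membrane of Gram-negative bacteria) raised them more in osteoclasts than in macrophages. A gene met the rule when its rise in osteoclasts was at least 1 on the scale log2(FPKM + 1) and exceeded its change in macrophages. FPKM counts sequenced fragments per kilobase of a gene's exons after a scaling of each library. They are 7 of the 54532 genes in the table and 7 of the 11335 genes tested, which reached 1 FPKM in 3 or more of the 12 libraries. All 7 passed that filter on low values. Synpo2 passed it through the LPS-treated osteoclasts alone. Of the 11335 genes tested, 17 met both conditions of the rule, or 0.15%, and the 7 genes are among them. The genes were thus chosen by their LPS effects in both cell types and the difference of these, and such values are given below as descriptions with no test.

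RNA was sequenced from 4 groups of 3 libraries, all of wild-type mice. Macrophages were grown from bone marrow with CMG, a source of the macrophage growth factor M-CSF, and received no RANKL. Osteoclasts came from the same kind of culture with RANKL, the cytokine that turns macrophages into osteoclasts, at 100 ng/mL per the sample source. Both cell types were left untreated or received 100 ng/mL of LPS for 3 h on day 5. The labels do not say whether the 3 libraries of a group came from separate mice or cultures, so the spread between libraries may be technical.

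Osteoclasts are multinucleated cells that dissolve bone. They form by fusion of macrophage precursors, attach to bone through podosomes (actin-rich adhesion structures) that join into a sealing ring, and depend on the tyrosine kinase Src for it. LPS is sensed by Toll-like receptor 4, which both cell types can carry, and the signal passes through the adapter TRAF6, NF-kB and MAP kinases. The 7 genes encode proteins of different kinds. Hbegf encodes a membrane-bound growth factor of the EGF family. Ptpre encodes protein tyrosine phosphatase epsilon, whose cytoplasmic isoform is known to activate Src in osteoclasts. Fhl2 encodes a LIM-domain protein that binds integrins, transcription factors and TRAF6, and Synpo2 encodes an actin-bundling protein of the synaptopodin family. Fam83g encodes a scaffold for casein kinase 1, Arhgap22 a GTPase-activating protein for Rac, and Ankrd33b an ankyrin repeat protein whose role is little known.

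Upstream sequences of a pair of these genes are shown because they are the only windows among the 7 genes with a match to an SRF or AP-1 motif outside annotated exons. SRF drives actin and muscle genes through the CArG box, and AP-1 is among the factors activated by LPS. The sequences are those of RefSeq on build GRCm38.p6, 250 bases upstream of an annotated start, and 6 of the 7 genes had at least 1 such window. Hbegf was the exception. In GENCODE M21 on GRCm38, Fhl2 spans chr1:43123074-43196984, Ptpre chr7:135537481-135686293, Synpo2 chr3:123076519-123236149, Fam83g chr11:61684091-61709951, Arhgap22 chr14:33214026-33369934 and Ankrd33b chr15:31291478-31367726. The window of Fhl2 (chr1:43163962-43164211, minus strand) lies upstream of an internal start of the gene, and its capitals mark a CArG box at -31 to -22 from that start. The window of Ptpre (chr7:135605578-135605827, plus strand) also lies upstream of an internal start, and its capitals mark an AP-1 motif at -240 to -234.
Fhl2: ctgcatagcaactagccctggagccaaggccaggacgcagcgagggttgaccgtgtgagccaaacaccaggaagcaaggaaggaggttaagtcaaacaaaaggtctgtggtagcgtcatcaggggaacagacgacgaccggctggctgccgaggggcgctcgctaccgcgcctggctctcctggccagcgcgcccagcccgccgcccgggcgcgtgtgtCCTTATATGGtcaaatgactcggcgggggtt
Ptpre: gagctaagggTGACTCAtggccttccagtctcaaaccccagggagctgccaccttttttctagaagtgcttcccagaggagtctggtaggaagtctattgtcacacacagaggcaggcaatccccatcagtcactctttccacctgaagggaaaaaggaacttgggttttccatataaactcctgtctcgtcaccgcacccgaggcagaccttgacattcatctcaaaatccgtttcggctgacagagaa

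Both strands were searched, and a motif could overlap another. A CArG box, searched by its name, stands in 1.47% of 32851 mouse promoter windows of the same length, and AP-1 (TGANTCA) in 6.75%. The upstream start of Fhl2 had a CArG match as well. The cyclic AMP response element (TGACGTCA, in 1.55% of windows) and the strict NF-kB motif (searched by its name, in 3.9%) matched no window of the 6 genes. A loose NF-kB motif, 3 G and 2 C around 5 free bases, matched Fhl2, Fam83g, Ptpre and Ankrd33b, and it stands in 45.8% of all windows. The TATA box, with the letters TATAAA and found in 12.4%, matched Fhl2, Synpo2 and Ptpre. These matches describe the letters of the windows, and the files hold no measurement of binding.

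Assigned reads per library ranged from 15651944 to 20281555, and they were recovered from the FPKM values, which were whole multiples of a step for each gene. The 10 osteoclast markers summed to 29220 to 32220 FPKM in the osteoclast libraries and to 16.3 to 29.0 FPKM in the macrophage libraries, so the cell type labels held. The 10 macrophage markers summed to 13593 to 16005 FPKM in macrophages and to 2722 to 3560 FPKM in osteoclasts, most of it from Cd68, Lyz2 and Csf1r. Relative to macrophages, Fcrls and Cx3cr1 were the lowest of these markers in untreated osteoclasts, at 0.0234% and 0.342% of their macrophage level. Markers of stromal cells, muscle and neutrophils summed to at most 1.88 FPKM in any osteoclast library for each list, and dendritic cell markers to at most 9.28 FPKM. In the macrophage libraries the stromal markers summed to 27.7 to 38.5 FPKM, the muscle markers to 50.5 to 66.3 and the neutrophil markers to 5.41 to 15.99. What part other cells of the macrophage cultures had in the cell-type differences below was not tested. In RNA from whole cultures, fewer cells of a type and less RNA per cell cannot be told apart.

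Of the 7 genes, 4 had the higher level in osteoclasts both without and with LPS, namely Ptpre, Hbegf, Fam83g and Synpo2. Fhl2 was higher in osteoclasts with LPS but not without it. Arhgap22 and Ankrd33b had the higher level in macrophages in both states. The contrast tested was the mean cell-type difference, averaged over untreated and LPS-treated libraries. The average includes the LPS-treated osteoclasts, whose level the rule favoured, so the rule favours a value above 0. Fhl2 owes its value to those libraries, and for it and for Synpo2 the difference is given with no test. Without LPS, the osteoclast level was above the macrophage level by 1.75 for Ptpre, 1.39 for Hbegf and 0.58 for Fam83g on the log2(FPKM + 1) scale. Across all genes tested, 86.4% were called in either direction at an adjusted p under 0.05 (limma, Benjamini-Hochberg), 41.5% as higher in osteoclasts and 44.9% as lower. Against that background, a call for each of the other 5 genes is not a result about them.

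**Figure D1:**
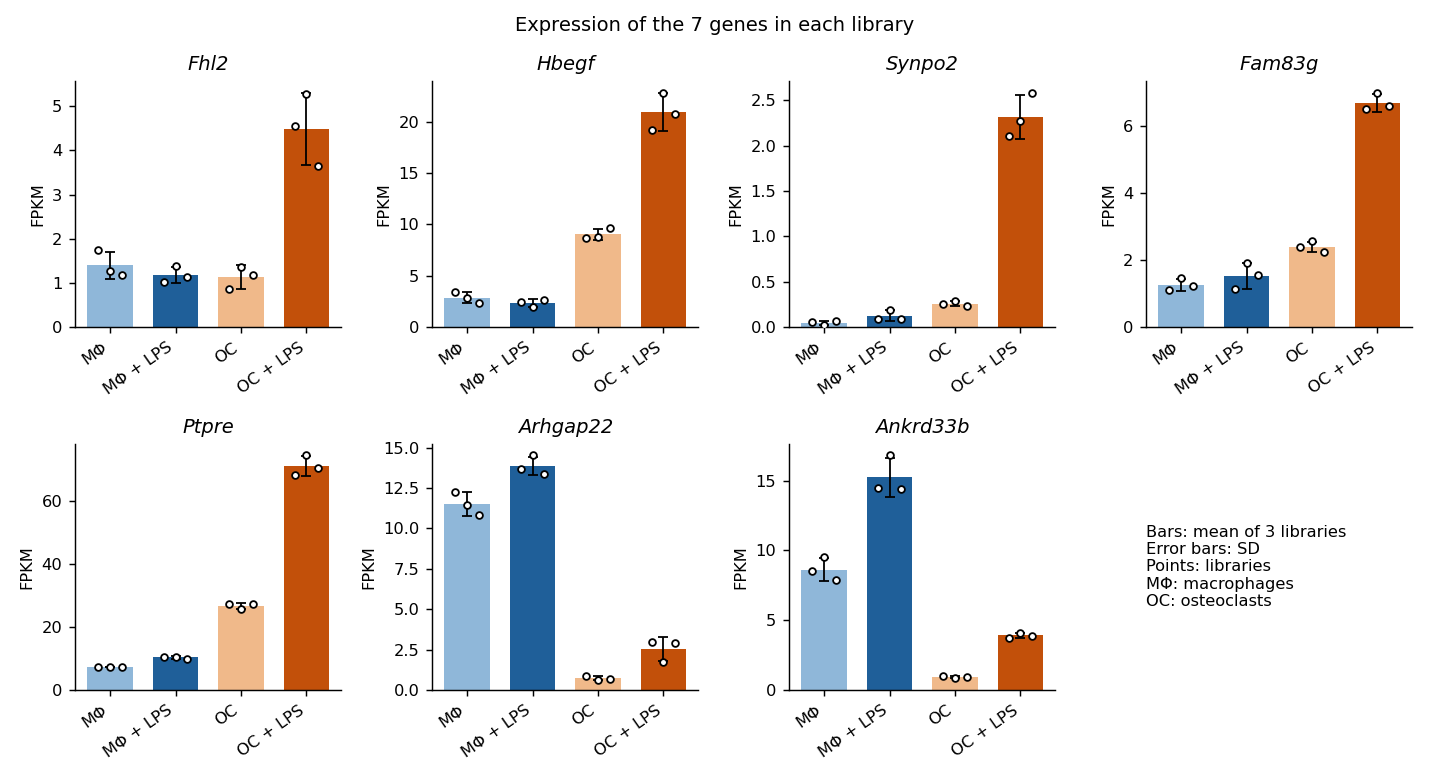
FPKM of the 7 genes in the 12 libraries, by group, with bars for the mean of 3 libraries, error bars for the SD and points for libraries. In every panel the 3 LPS-treated osteoclast points lie above the 3 untreated osteoclast points, and for Arhgap22 and Ankrd33b both osteoclast groups lie below both macrophage groups.

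Hbegf, the growth factor, was expressed at 3.40, 2.81 and 2.33 FPKM in the 3 untreated macrophage libraries and at 2.44, 1.95 and 2.67 FPKM with LPS. The macrophage groups overlapped. In untreated osteoclasts Hbegf was at 8.65, 8.75 and 9.64 FPKM, and with LPS at 19.2, 22.8 and 20.8 FPKM. The osteoclast groups did not overlap, and every osteoclast library was above every macrophage library. The group means gave a fold of 2.32 with LPS in osteoclasts and of 0.827 in macrophages. On the log2(FPKM + 1) scale the LPS effect was 1.13 in osteoclasts and -0.19 in macrophages. Averaged over both states, osteoclasts were higher in Hbegf by 2.05 with an SE of 0.08 (adjusted p = 6.11e-11, limma). With LPS the osteoclast mean was 8.89 times the macrophage mean, against 3.17 times without.

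Hbegf was the only EGF receptor ligand of those listed that reached the level of testing. The other EGF and neuregulin ligands, Egf, Tgfa, Areg, Ereg, Btc, Epgn and Nrg1 to Nrg4, had group means of at most 0.311 FPKM, that of Nrg4 in LPS-treated macrophages. Among their receptors only Egfr passed the filter. Egfr was at 0.150 ± 0.069 FPKM (SD, n = 3) in untreated macrophages and 0.245 ± 0.045 with LPS, and at 2.34 ± 0.25 in untreated osteoclasts and 2.73 ± 0.18 with LPS. For Egfr the mean cell-type difference was 1.56. Since only osteoclast libraries carried Egfr past the filter, a difference between the cell types was bound to appear, and it is given with no test. The LPS effect on Egfr did not pass the test in either cell type, with 0.16 in osteoclasts (adjusted p = 0.183, limma) and 0.12 in macrophages (adjusted p = 0.195). The macrophage value was called with a pseudocount of 0.1, at 0.49 (adjusted p = 0.0392), and with voom on the recovered reads, at 0.80 (adjusted p = 0.0352).

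Adam17 and Rhbdf2, which take part in the release of HB-EGF from the membrane, were lower in osteoclasts. Rhbdf1, a relative of Rhbdf2 with a like role, was not. Adam17, the protease that sheds it, was at 12.2 ± 0.80 FPKM (SD, n = 3) in untreated and 15.8 ± 1.9 in LPS-treated osteoclasts, and at 39.2 ± 2.1 and 89.4 ± 1.0 in macrophages. Its partner Rhbdf2, which carries the protease to the cell surface, was at 7.89 ± 0.053 and 11.8 ± 0.19 FPKM in osteoclasts and at 19.9 ± 1.7 and 83.2 ± 2.9 in macrophages. Both rose with LPS in both cell types, by 0.35 and 0.53 on the log2 scale in osteoclasts (adjusted p = 0.00666 and 2.13e-05, limma) and by 1.17 and 2.01 in macrophages. The difference between these LPS effects was -1.48 with an SE of 0.07 for Rhbdf2 (adjusted p = 1e-08, limma). For Adam17 it was -0.82, and the call was lost on rescaling to TPM, where the difference was -0.24 (adjusted p = 0.0593), and on quantile normalization, where it was -0.22 (adjusted p = 0.0928). Rhbdf1 was higher in osteoclasts by 0.25 (adjusted p = 0.00765, limma), a call lost on rescaling to TPM, where the difference was 0.21 (adjusted p = 0.0573). Its LPS effect of 0.33 in osteoclasts was just past the threshold (adjusted p = 0.0488, limma). That call was lost with no filter on low values, a pseudocount of 0.1, TPM and quantile normalization, and on leaving out any one of 9 of the 12 libraries. Cd9, a tetraspanin partner of HB-EGF, was higher in osteoclasts, with a mean cell-type difference of 0.79 and an SE of 0.05 (adjusted p = 4.54e-09, limma). The LPS effect on Cd9 in macrophages was 0.10 (adjusted p = 0.182, limma), and it turned to -0.55 with TPM (adjusted p = 1.19e-05) and -0.76 with quantile normalization (adjusted p = 3.14e-07). The difference between its LPS effects, -0.15 and not called, turned to 0.42 (adjusted p = 0.00201) and 0.61 (adjusted p = 8.89e-05). Of the 10 genes in this list of shedding and partner genes, 6 were tested, and the LPS effect was higher in osteoclasts for 1, lower for 3 and not called as different for 2. On rescaling to TPM it was higher for 2 and lower for 2, and on quantile normalization higher for 2 and lower for 1. With FPKM as deposited, 26.6% of all genes tested were called higher and 30% lower.

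Ptpre was the most abundant of the 7 genes in osteoclasts, while in macrophages Arhgap22 and Ankrd33b were above it. In untreated macrophages it was at 7.29, 7.24 and 7.21 FPKM, and with LPS at 10.5, 10.6 and 9.86. Untreated osteoclasts had 27.1, 25.7 and 27.4 FPKM, and LPS-treated osteoclasts had 68.4, 74.4 and 70.3. The 4 groups stood in the order untreated macrophages, LPS-treated macrophages, untreated osteoclasts and LPS-treated osteoclasts, with no overlap between neighbours. The fold with LPS was 2.66 in osteoclasts and 1.43 in macrophages. On the log2(FPKM + 1) scale these were 1.38 and 0.46, and rescaling to TPM turned the macrophage value to -0.13. The mean cell-type difference of Ptpre was 2.21 with an SE of 0.03 (adjusted p = 1.32e-14, limma). Its values rest on 1373 to 13807 reads per library.

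Src, the kinase that the phosphatase acts on, was at 109 ± 4.4 FPKM (SD, n = 3) in untreated and 124 ± 7.3 in LPS-treated osteoclasts. In macrophages Src went from 1.23 ± 0.16 FPKM untreated to 46.2 ± 3.1 with LPS, a log2 effect of 4.40 with an SE of 0.07 (adjusted p = 1.3e-13, limma). The effect on Src in osteoclasts was 0.19 (adjusted p = 0.0722, limma), which voom on the recovered reads called (adjusted p = 0.0117), and the difference between the effects was -4.21 with an SE of 0.09 (adjusted p = 2.31e-11). Src and Ptpre were both higher in osteoclasts, Src by a mean cell-type difference of 3.51 with an SE of 0.05 (adjusted p = 8.61e-15, limma). Among the other receptor phosphatases, Ptprj rose from 31.9 ± 0.61 to 189 ± 5.0 FPKM with LPS in macrophages and from 34.2 ± 0.87 to 46.5 ± 2.3 in osteoclasts. The difference for Ptprj was -2.09 with an SE of 0.06 (adjusted p = 9.73e-11, limma). Ptprc, the CD45 phosphatase of blood cells, rose with LPS in macrophages from 16.4 ± 0.48 to 51.8 ± 3.6 FPKM and was at 16.2 FPKM in both osteoclast groups. Ptpra, the closest relative of Ptpre, was lower in osteoclasts, with a mean cell-type difference of -1.09 and an SE of 0.03 (adjusted p = 5.73e-12, limma). Of the 18 genes of this list, 11 were tested, and for 1 the LPS effect was higher in osteoclasts, for 5 lower, and for 5 the difference did not pass the test. Across all genes tested, 26.6% were called higher and 30% lower, with a median difference of -0.01. The median difference of the list was -0.21. This direction depended on the scaling, with 6 higher, 3 lower and a median of 0.36 on rescaling to TPM, and 5 of each on quantile normalization.

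Fhl2 was near 1 FPKM in 3 of the 4 groups. It was at 1.75, 1.28 and 1.18 FPKM in untreated macrophages, at 1.03, 1.38 and 1.13 in LPS-treated macrophages, and at 0.857, 1.37 and 1.18 in untreated osteoclasts. These 3 groups overlapped with each other. In LPS-treated osteoclasts Fhl2 was at 4.55, 5.27 and 3.64 FPKM, above all 9 other libraries. The fold with LPS was 3.95 in osteoclasts and 0.839 in macrophages, or 1.36 and -0.14 on the log2(FPKM + 1) scale. The difference of 1.495 between them was the largest of the 7 genes on this scale. The mean cell-type difference of Fhl2 was 0.58, the smallest in size of the 7. It is an average of -0.17 without LPS and 1.32 with LPS, so its direction comes from the LPS-treated libraries that chose the gene. The values rest on few reads, 25 to 77 per library outside the LPS-treated osteoclasts and 126 to 171 in them.

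The closest relative of Fhl2 in these cells was Fhl3, expressed far above Fhl2, at 59.4 ± 1.2 and 54.8 ± 5.5 FPKM (SD, n = 3) in untreated and LPS-treated macrophages and at 108 ± 2.7 and 114 ± 6.4 in osteoclasts. Its mean cell-type difference was 0.95 with an SE of 0.05 (adjusted p = 8.17e-10, limma). Fhl1 and Fhl4 stayed under the filter. Traf6, which FHL2 binds, was also higher in osteoclasts, by a mean cell-type difference of 0.94 with an SE of 0.04 (adjusted p = 4.99e-10, limma). With LPS, Traf6 rose in macrophages by 0.51 (adjusted p = 1.09e-05, limma), a direction that turned to -0.06 on rescaling to TPM. Of the 9 genes of this list, 6 were tested. None of the 6 passed the test for LPS in osteoclasts with limma on log2(FPKM + 1) or with voom. In either fit 0 of them had an unadjusted p under 0.05, and the median effect was 0.07 beside 0.01 over all genes tested. Only 11.1% of all genes tested were called raised and 6.59% lowered with limma, so nothing is read from a count among 6.

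Synpo2 was the rarest of the 7 genes and had the largest fold. In untreated macrophages it was at 0.0525, 0.0259 and 0.0649 FPKM, on 8 to 19 reads per library, and with LPS at 0.0954, 0.194 and 0.0921 FPKM. Untreated osteoclasts had 0.256, 0.284 and 0.228 FPKM, and LPS-treated osteoclasts had 2.10, 2.27 and 2.58, on 460 to 619 reads per library. No pair of neighbouring groups overlapped in this order. The fold with LPS was 9.06 in osteoclasts and 2.66 in macrophages, or 1.40 and 0.10 on the log2(FPKM + 1) scale, where the pseudocount of 1 FPKM compresses values as low as these. With a pseudocount of 0.1 FPKM the same effects were 2.76 and 0.60. For Synpo2 the mean cell-type difference was 0.91. Since only the LPS-treated osteoclasts carried it past the filter, a difference between the cell types was bound to appear.

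Among the SRF, actin-binding and synaptopodin genes, the relatives Synpo and Synpo2l stayed under the filter. Srf itself, the factor that binds the CArG box, was at 14.5 ± 0.88 FPKM (SD, n = 3) in untreated and 9.48 ± 1.0 in LPS-treated macrophages, and at 13.5 ± 0.86 and 18.1 ± 1.5 in osteoclasts. Srf thus fell by 0.57 with LPS in macrophages (adjusted p = 4.23e-05, limma) and rose by 0.40 in osteoclasts (adjusted p = 0.00451). The difference was 0.97 with an SE of 0.11 (adjusted p = 1.47e-05, limma), and both directions held on rescaling to TPM and on quantile normalization. Vcl, which encodes the adhesion protein vinculin, was at 5.19 ± 0.23 and 4.02 ± 0.12 FPKM in macrophages and at 25.4 ± 1.0 and 28.4 ± 1.8 in osteoclasts, with a difference between LPS effects of 0.45 (adjusted p = 0.000249, limma). Zyx, which encodes the adhesion protein zyxin, rose more in macrophages. It rose from 32.5 ± 0.87 to 91.7 ± 7.6 FPKM in macrophages and from 9.70 ± 0.14 to 14.2 ± 0.27 in osteoclasts, with a difference of -0.97 (adjusted p = 4.35e-07, limma). Of 16 genes tested in this list of 19, LPS raised 5 and lowered 2 in osteoclasts, where 11.1% and 6.59% of all genes tested were called. These counts were 5 and 2 on rescaling to TPM and 3 and 3 on quantile normalization. Over all genes tested the difference was called above 0 for 26.6% and below 0 for 30%. In the list it was above 0 for 4, below 0 for 4 and not called for 8. It was above 0 for 14 and below 0 for 2 on rescaling to TPM, and for 10 and 2 on quantile normalization.

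Fam83g was at 1.12, 1.47 and 1.21 FPKM in untreated macrophages and at 1.13, 1.91 and 1.55 with LPS, and these groups overlapped. In untreated osteoclasts it was at 2.38, 2.56 and 2.25 FPKM, and with LPS at 6.49, 6.98 and 6.58. Neither osteoclast group overlapped with any other group. The fold with LPS was 2.79 in osteoclasts and 1.21 in macrophages. The log2 effects were 1.18 and 0.15, and the macrophage value turned to -0.32 on rescaling to TPM. Fam83g had a mean cell-type difference of 1.10 with an SE of 0.07 (adjusted p = 1.54e-08, limma). Fam83g shares 393 of its 6659 exon bases with Slc5a10 on the opposite strand, which was at most 0.0854 FPKM in any library.

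No other FAM83 gene tested was called as raised by LPS in osteoclasts. Fam83d, which binds the mitotic spindle, was at 2.53 ± 0.33 FPKM (SD, n = 3) in untreated and 0.472 ± 0.058 in LPS-treated macrophages, and at 0.287 ± 0.038 and 0.102 ± 0.072 in osteoclasts. Only the untreated macrophages carried Fam83d past the filter, so a lower value with LPS there and a positive difference were bound to appear, and both are given with no test. The LPS effect on Fam83d was -1.26 in macrophages, and the difference was 1.03. Csnk1a1, the casein kinase 1 alpha gene, rose from 20.5 ± 0.26 to 40.8 ± 1.0 FPKM with LPS in macrophages and was at 25.8 ± 0.51 and 28.6 ± 0.73 in osteoclasts. The difference for Csnk1a1 was -0.82 with an SE of 0.05 (adjusted p = 4.71e-08, limma). Of 13 genes in the list, 9 were tested, with 1 raised and 1 lowered by LPS in osteoclasts and 4 of each in macrophages. Across all genes tested, 11.1% were raised and 6.59% lowered in osteoclasts, and 36.8% and 33.1% in macrophages. The 4 lowered in macrophages include Fam83d and Fam83f. Fam83f also passed the filter through the untreated macrophages alone, so its lower value with LPS there was bound to appear. On rescaling to TPM the macrophage counts were 1 raised and 7 lowered, and on quantile normalization 3 and 5. In osteoclasts they were 0 raised and 2 lowered under both scalings. The raised gene, Csnk1a1, lost its call there, with 0.07 on either scaling (adjusted p = 0.227 with TPM and 0.175 with quantile normalization).

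Arhgap22 had the opposite cell-type pattern. It was at 12.3, 11.5 and 10.8 FPKM in untreated macrophages and at 13.7, 14.5 and 13.4 with LPS. In untreated osteoclasts it was at 0.839, 0.595 and 0.698 FPKM, and with LPS at 2.98, 1.71 and 2.91. All 6 osteoclast libraries were below all 6 macrophage libraries, and within each cell type the groups did not overlap. The fold with LPS was 3.57 in osteoclasts and 1.20 in macrophages. The log2 effects were 1.03 and 0.25, and the macrophage value turned to -0.37 on rescaling to TPM and to -0.04 on quantile normalization. Arhgap22 had a mean cell-type difference of -2.48 with an SE of 0.09 (adjusted p = 4.01e-11, limma). Macrophages held 16.2 times the osteoclast level without LPS and 5.47 times with LPS. Of its 3876 exon bases, 1429 are shared with Gm15512 on the opposite strand, which was at most 0.191 FPKM in any library.

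Ankrd33b shared this pattern. It was at 8.52, 9.53 and 7.85 FPKM in untreated macrophages and at 14.5, 16.8 and 14.4 with LPS. In osteoclasts it was at 0.990, 0.865 and 0.907 FPKM untreated and at 3.75, 4.10 and 3.87 with LPS. No groups overlapped. The fold with LPS was 4.25 in osteoclasts and 1.76 in macrophages, and the log2 effects were 1.35 and 0.75. Its difference of 0.60 was the smallest of the 7 genes on the log2(FPKM + 1) scale. As a log2 ratio of group means with no pseudocount it was 1.27, and the smallest was then that of Ptpre, 0.90. The mean cell-type difference of Ankrd33b was -2.02 with an SE of 0.05 (adjusted p = 2.2e-12, limma), and macrophages held 9.38 times the osteoclast level without LPS and 3.90 times with LPS.

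The label of stronger induction holds for the 7 genes as a difference of log values because the rule chose them on it. The rule also favoured a larger fold in osteoclasts, which all 7 had. As an amount in FPKM as deposited the label holds for 5 of them. LPS added 44.3 FPKM of Ptpre in osteoclasts and 3.09 FPKM in macrophages. It added 11.9 FPKM of Hbegf, 4.29 of Fam83g, 3.35 of Fhl2 and 2.06 of Synpo2 in osteoclasts, against macrophage changes of -0.494, 0.262, -0.226 and 0.0793 FPKM. For Arhgap22 and Ankrd33b the amount gained in FPKM was larger in macrophages. LPS added 2.36 FPKM of Arhgap22 in macrophages and 1.82 in osteoclasts. It added 6.60 FPKM of Ankrd33b in macrophages and 2.99 in osteoclasts. This order depended on the scaling. On rescaling to TPM the gain was larger in osteoclasts for all 7 genes, with 4.90 TPM of Arhgap22 against -10.3 in macrophages and 8.12 of Ankrd33b against 4.26. On quantile normalization it was larger in osteoclasts for 6, and only Ankrd33b gained more in macrophages, 4.23 against 2.94 in osteoclasts.

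**Figure D2:**
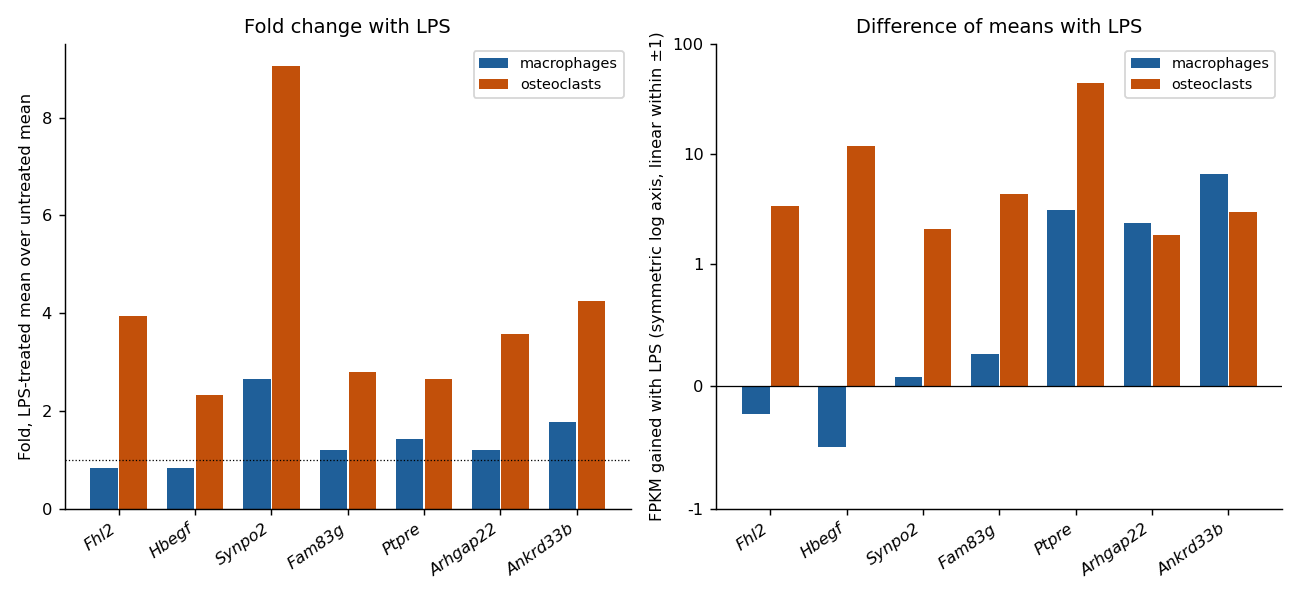
Left, the LPS-treated mean over the untreated mean of the 7 genes in macrophages and osteoclasts (linear axis, dotted line at 1). Right, the difference of those means in FPKM as deposited (symmetric log axis, linear within 1 of 0), where the macrophage bar is the taller one for Arhgap22 and Ankrd33b and the osteoclast bar for the other 5 genes.

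The ranges of the libraries split the genes differently in each contrast. In osteoclasts all 7 genes were higher in the 3 LPS-treated libraries than in any untreated library, where 19% of all genes tested were. Since this contrast chose the genes, nothing is read from the count. In macrophages 4 genes, Synpo2, Ptpre, Arhgap22 and Ankrd33b, were higher with LPS with no overlap, against 38.8% of all genes tested. The untreated cell types differed with no overlap for 6 of the 7 genes, 4 higher in osteoclasts and 2 lower, where 40.6% of all genes tested were higher and 40.7% lower. Fhl2 was the gene whose untreated groups overlapped. With LPS, 5 genes were higher in osteoclasts and 2 lower with no overlap, where 40.7% and 42.9% of all genes tested were.

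**Figure D3:**
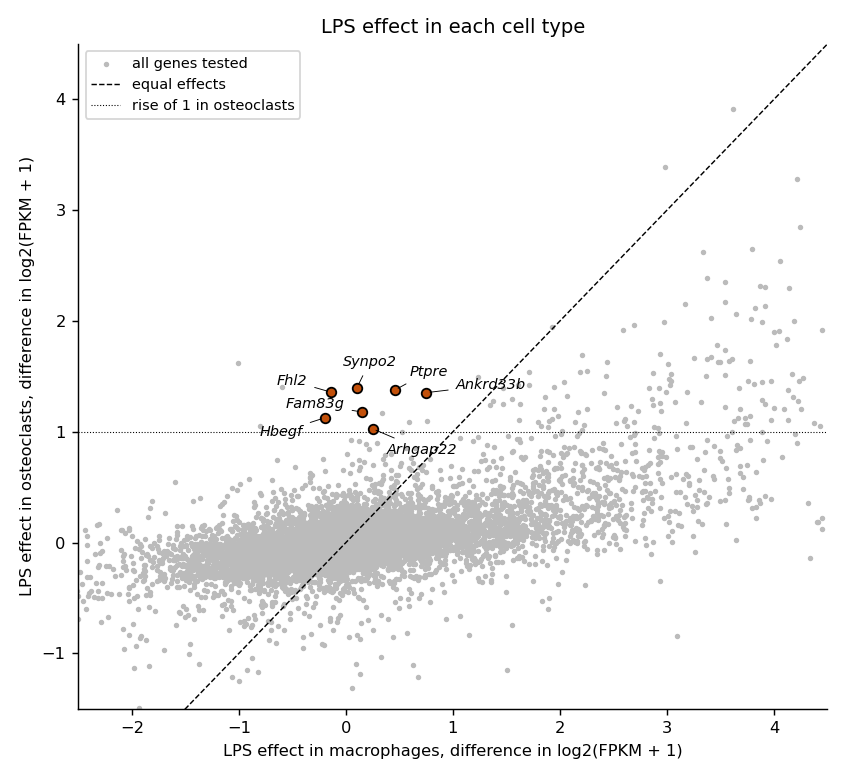
LPS effect in macrophages (x axis) and in osteoclasts (y axis), both as differences in log2(FPKM + 1), for the genes tested (grey) and the 7 genes (orange), with a dashed line for equal effects and a dotted line at a rise of 1 in osteoclasts. The 7 genes lie above both lines, at osteoclast effects of 1.03 to 1.40, and 163 genes lie outside the axes.

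A rise of at least 1 was rarer in osteoclasts than in macrophages. It was reached by 244 of the 11335 genes tested in osteoclasts, or 2.15%, and by 1366 in macrophages, or 12.1%. The 10 other genes that met both conditions included 5 short or unclassified RNAs on few reads, Mir7213, Gm22574, Gm22270, Gm22362 and Mir7688. Mir7213 and Gm22574 had the largest differences between cell types, 2.63 and 2.01, and the 3 LPS-treated osteoclast libraries together held 11 and 24 reads of them. The 5 protein-coding genes were Nlrp3, Lrrc8c, Fscn1, Tnfrsf14 and H2-M2. Nlrp3, the inflammasome sensor, went from 0.788 ± 0.13 to 17.9 ± 3.6 FPKM (SD, n = 3) in osteoclasts and from 22.3 ± 2.0 to 183 ± 4.7 FPKM in macrophages, with a difference of 0.41 on the log2(FPKM + 1) scale. That difference was 1.31 with a pseudocount of 0.1, 1.56 on rescaling to TPM and 1.46 with voom on the recovered reads. H2-M2 had the smallest difference, 0.03.

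Among the genes that met the rule, Arhgap22 stood nearest to the threshold, with a rise of 1.03, followed by Gm22270 with 1.05. Just under it were Gm26384 with 0.9989 and Mir99a with 0.93. On the other condition, Grap and Itgal rose by 1.40 and 1.28 in osteoclasts and by 1.46 and 1.37 in macrophages, which left them just short. Quantile normalization put Arhgap22 at 0.96 and so outside the rule. It also fell outside without the untreated osteoclast library 2, the LPS-treated osteoclast library 1 or the LPS-treated osteoclast library 3, where the lowest rise was 0.93. The other 6 genes met the rule in each of these settings.

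The LPS-treated osteoclast library 2 stood apart for Arhgap22. Its value of 1.71 FPKM was 0.579 of the mean of the other two libraries, and the rise of Arhgap22 was 1.21 without it, against 1.03 with it. Of the 10 macrophage markers, 7 were also lowest in this library, among them Adgre1, the gene of the macrophage antigen F4/80, at 42.5 FPKM against 73.1 and 70.9 (0.591 of their mean). Lyz2 was at 0.540 of that mean and Mrc1 at 0.480, and Fcrls was at 0. The library had the highest value of 7 of the 10 osteoclast markers and of 5 of the 7 genes, namely Fhl2, Hbegf, Fam83g, Ptpre and Ankrd33b. Ankrd33b was at 1.08 of the mean of the other libraries there, and the macrophage markers Cd68 and Csf1r were at 1.08 and 1.06.

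**Figure D4:**
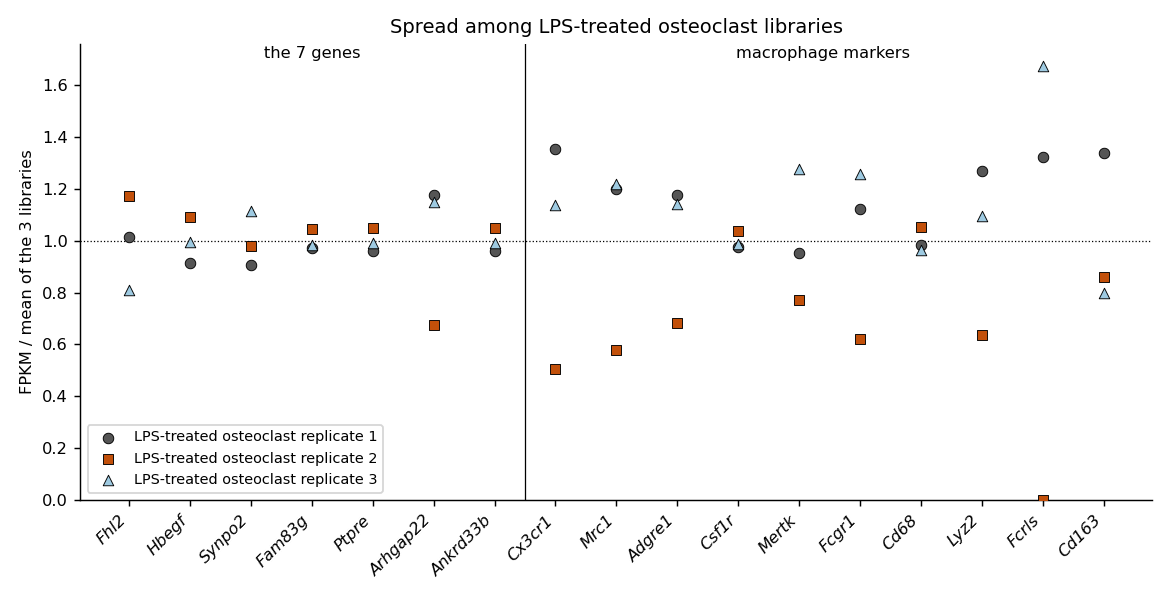
FPKM of the 7 genes (left) and of 10 macrophage markers (right) in each of the 3 LPS-treated osteoclast libraries, as a ratio to the mean of the 3 (linear axis, dotted line at 1). Replicate 2 is the lowest point for Arhgap22 and for 7 of the 10 markers, and the highest for 5 of the 7 genes.

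For the genes that macrophages carried at the higher level, these marker values stand beside the osteoclast result. In untreated osteoclasts Arhgap22 was at 6.17% of its macrophage level and Ankrd33b at 10.7%, and with LPS they were at 18.3% and 25.6%. Adgre1 was at 7.74% and 9.28% and Lyz2 at 11.7% and 11.2%. Mertk was at 9.22% and 7.01% and Cd163 at 1.77% and 4.43%. Csf1r was at 70.4% and 69.7% and Cd68 at 209% and 175%. The markers Fcrls, Cx3cr1, Mrc1 and Fcgr1 were each under 1% in both states. The summed macrophage markers were 2841 to 3291 FPKM in untreated and 2722 to 3560 FPKM in LPS-treated osteoclasts, so their ranges overlapped, and Cd68, Lyz2 and Csf1r make up nearly all of that sum. Of the 10 markers, 2 rose with LPS in osteoclasts by the test. Adgre1 rose to 1.88 times its untreated level, or by 0.85 on the log2 scale with an SE of 0.16 (adjusted p = 0.00258, limma). Fcgr1 rose from 0.429 ± 0.083 to 1.496 ± 0.50 FPKM (SD, n = 3), which is 3.49 times the untreated level, or a rise of 0.79 on the log2 scale with an SE of 0.12 (adjusted p = 0.000735, limma). These rises stand beside folds of 3.57 for Arhgap22 and 4.25 for Ankrd33b. What part remaining macrophages had in the osteoclast values of Arhgap22 and Ankrd33b was not tested.

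The relatives of these genes did not rise with LPS in osteoclasts by as much, but the genes themselves were chosen for that rise. Among 13 GTPase-activating proteins and small GTPases, 11 were tested. In the mean cell-type difference 44.9% of all genes tested were called lower in osteoclasts. So were 10 of the 11, as Arhgap22 was. Rac2, the Rac GTPase of blood cells, was the other one, at 62.5 ± 0.51 and 95.2 ± 7.1 FPKM (SD, n = 3) in untreated and LPS-treated macrophages and at 347 ± 5.0 and 361 ± 23 in osteoclasts. It was higher in osteoclasts by 2.18 with an SE of 0.04 (adjusted p = 9.8e-14, limma). The median of the list was -0.71, beside -0.03 over all genes tested. Arhgap15, Chn2 and Rac3 passed the filter through macrophages alone, so their lower osteoclast values were bound to appear. The count of 10 and the median include these genes. LPS raised 8 and lowered 2 of the 11 in macrophages, which became 1 and 7 on rescaling to TPM and 6 and 5 on quantile normalization, and it raised 1 and lowered 1 in osteoclasts. Across all genes tested, 36.8% were raised and 33.1% lowered in macrophages, and 11.1% and 6.59% in osteoclasts. Arhgap25, a Rac GAP of blood cells, fell in macrophages from 26 ± 2.1 to 2.57 ± 0.27 FPKM (SD, n = 3) and in osteoclasts from 5.96 ± 0.55 to 4.15 ± 0.32. The difference for Arhgap25 was 2.49 with an SE of 0.12 (adjusted p = 5.25e-09, limma), above that of any of the 7 genes, with a fall in both cell types. Arhgap31, a GAP for Rac and Cdc42, rose from 13.8 ± 0.24 to 57.4 ± 0.39 FPKM in macrophages and was at 23.7 ± 1.4 and 25.6 ± 1.5 in osteoclasts, with a difference of -1.87 (adjusted p = 9.94e-10, limma). The lower mean of Arhgap31 in osteoclasts, -0.20 (adjusted p = 0.000203, limma), was not called on quantile normalization, where it was -0.07 (adjusted p = 0.114). Of 4 ankyrin repeat relatives only Ankrd2 was tested. Ankrd2 was at 7.21 ± 0.38 FPKM in untreated and 8.37 ± 1.6 in LPS-treated osteoclasts, and the macrophage libraries held at most 0.0712 FPKM.

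In all, 61 of the 100 related genes were tested. LPS raised 12 and lowered 6 of them in osteoclasts, where 11.1% and 6.59% of all genes tested were called. In macrophages it raised 29 and lowered 16, with 36.8% and 33.1% of all genes. Fam83d, Fam83f and Nr4a1 are among the 16 lowered, and among the 13 with a higher effect in osteoclasts given below. They would not have passed the filter without the untreated macrophages, so the filter favoured both calls. On rescaling to TPM these counts were 9 raised and 10 lowered in osteoclasts and 9 and 41 in macrophages, and on quantile normalization 7 and 12 in osteoclasts and 20 and 33 in macrophages. None of the 61 rose by at least 1 in osteoclasts and 8 did in macrophages, where 2.15% and 12.1% of all genes tested did. The LPS effect was called higher in osteoclasts for 13 and lower for 25, where 26.6% and 30% of all genes tested were, or 56.6% in either direction. This split depended on the scaling as well. It was 37 higher and 9 lower on rescaling to TPM, where the median difference over all genes tested was 0.51 instead of -0.01, and 29 and 17 on quantile normalization. For the 7 genes, which were chosen for a difference above 0, it ran from 1.46 to 2.35 with TPM and from 0.78 to 1.33 with quantile normalization.

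**Figure D5:**
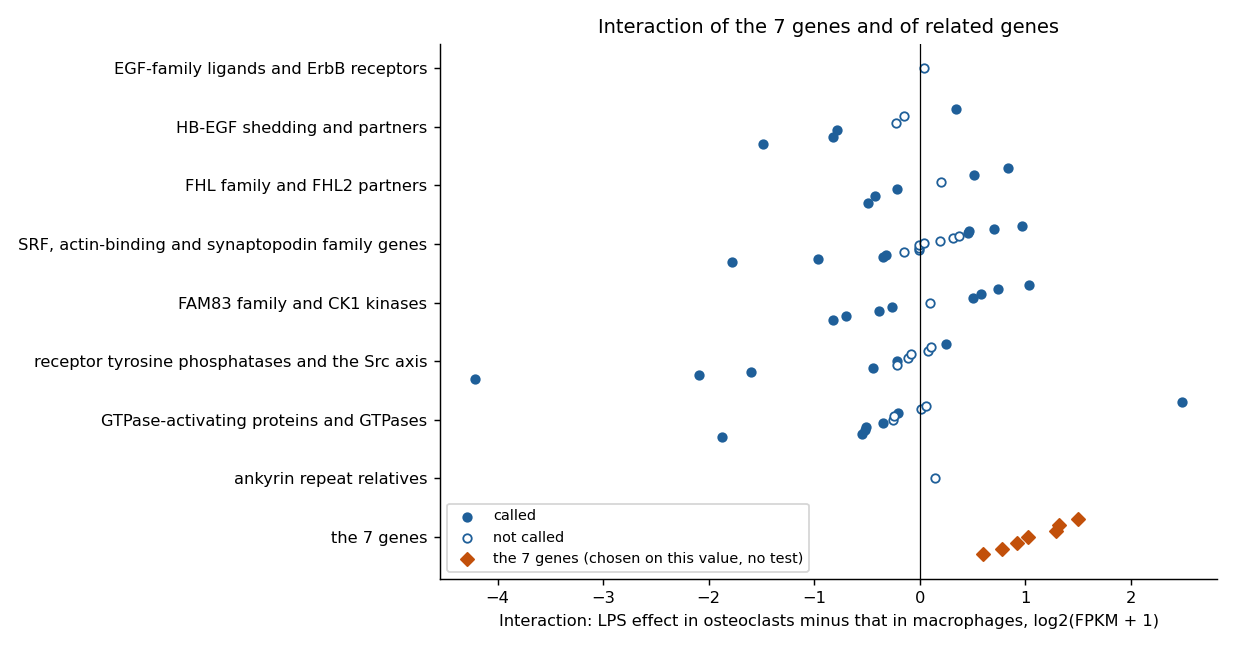
LPS effect in osteoclasts minus LPS effect in macrophages, as a difference in log2(FPKM + 1), for the related genes tested, by list, and for the 7 genes (orange). Filled blue points passed the test at an adjusted p under 0.05 and open points did not; the 7 genes, which were not tested, lie between 0.60 and 1.495.

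Over the 12 libraries, the 7 genes formed 2 profiles. Fhl2, Hbegf, Synpo2, Fam83g and Ptpre correlated with each other at Pearson r of 0.771 to 0.974 in log2(FPKM + 1), and Arhgap22 and Ankrd33b with each other at 0.967. Between the profiles r ran from -0.787, for Hbegf and Arhgap22, to -0.109, for Fhl2 and Ankrd33b. The points of such an r are 4 groups of 3 libraries, so it mostly reflects the order of 4 group means, and it is given as a description. The genes most like Hbegf were Vsig10 (r = 0.994) and Zfp469 (0.990), and those most like Ptpre were Fjx1 and Smurf1 (0.993 each). Fhl2 was most like Synpo2 (0.934) and Nop2 (0.905), Synpo2 like Fam83g (0.973) and Dapp1 (0.972), and Fam83g like Dapp1 (0.981) and Synpo2. Arhgap22 was most like Palld (0.995) and Ets2 (0.993), and Ankrd33b like Asap1 (0.994) and Mtmr12 (0.990). The mean profile of the 7 genes was most like Dapp1 (0.919), Nop2 (0.917), Mak16 (0.850), Pfkl (0.849) and Osbpl3 (0.845). Dapp1 was at 3.33 ± 0.12 FPKM (SD, n = 3) in untreated and 4.31 ± 0.49 in LPS-treated macrophages, and at 4.89 ± 0.36 and 9.97 ± 0.29 in osteoclasts.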

How the data were processed

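RNA sequencing covered 12 libraries, 3 for each of 4 groups. The authors deposited FPKM values. Per the submitters' processing notes, fastp, STAR, featureCounts and DESeq2 were used with build mm10. Versions, annotation and use of strand are not given in the sources used here. Values were whole multiples of a step per gene, which gave whole reads within 0.02 for 25787 of the 25854 genes above 0 (99.74%). The recovered denominators were 12764596 to 14924740 in LPS-treated macrophages and 15415182 to 23514243 elsewhere, so the deposited FPKM were not scaled to the read total. The steps implied the exon lengths of GENCODE M21 for 96.75% of genes above 0, but other lengths for Hbegf and Synpo2.

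Genes that reached 1 FPKM in 3 or more libraries were tested with limma 3.58.1 in R 4.3.3 on log2(FPKM + 1), in 1 fit of 4 group means with a variance trend, two-sided, with Benjamini-Hochberg adjustment over 11335 genes and calls at an adjusted p under 0.05. Low genes have understated folds on this scale. The steps were tested on simulated data. The 7 genes, the related lists and the markers were chosen with earlier results of these data known. Named besides the 7 genes were, by rule, the closest profiles, the other genes that met the rule and those nearest its thresholds. Genes of the lists were named as well, of which Rhbdf1, Rac2, Rac3, Arhgap15, Chn2, Fam83f and Nr4a1 were chosen after their values were seen. A gene of the lists is not reported here. Promoter windows and gene positions are on GRCm38.

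Each comparison was repeated without a filter, with a filter at a mean of 5 FPKM, a pseudocount of 0.1, TPM, quantile normalization, a replicate block, a constant variance prior and voom on the recovered reads, and with each library left out.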

Additional observations from a re-analysis of the deposited data

Results flagged for a closer look

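Of the genes related to the 7 by function, 13 named above had an LPS effect that differed between osteoclasts and macrophages by the test of the difference itself (limma, Benjamini-Hochberg over all genes tested). The values subtract the macrophage effect from the osteoclast effect on the log2(FPKM + 1) scale. It was above 0 for Arhgap25 (2.49, SE 0.12, adjusted p = 5.25e-09), Srf (0.97, SE 0.11, adjusted p = 1.47e-05) and Vcl (0.45, SE 0.07, adjusted p = 0.000249). It was below 0 for Src (-4.21, SE 0.09, adjusted p = 2.31e-11), Ptprj (-2.09, SE 0.06, adjusted p = 9.73e-11) and Arhgap31 (-1.87, SE 0.07, adjusted p = 9.94e-10). Ptprc (-1.60, SE 0.10, adjusted p = 5.81e-08) and Rhbdf2 (-1.48, SE 0.07, adjusted p = 1e-08) were below 0 as well. The smaller negative values were those of Zyx (-0.97, SE 0.08, adjusted p = 4.35e-07), Adam17 (-0.82, SE 0.11, adjusted p = 3.39e-05), Csnk1a1 (-0.82, SE 0.05, adjusted p = 4.71e-08), Rac2 (-0.55, SE 0.08, adjusted p = 8.27e-05) and Traf6 (-0.43, SE 0.09, adjusted p = 0.00115). On rescaling to TPM the value of Traf6 turned to 0.08 (adjusted p = 0.492) and that of Rac2 to 0.02 (adjusted p = 0.813), and on quantile normalization that of Rac2 was 0.13 (adjusted p = 0.142). With TPM Adam17 was no longer called, nor on quantile normalization. The value of Fam83d was 1.03, with no test, since the gene passed the filter on low values through the untreated macrophages alone. Over all genes tested, 56.6% were called in either direction.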

How the results depend on the processing

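The mean cell-type difference of Hbegf, Fam83g, Ptpre, Arhgap22 and Ankrd33b kept its direction and its call under every alternative that gave a value. For Hbegf, Fam83g and Ptpre the rule favoured that direction. With 86.4% of all genes tested called, the kept calls are not a result about the 5 genes. The filter at a mean of 5 FPKM left out Fhl2, Synpo2 and Fam83g. It tested fewer genes and called 5829 for the mean cell-type difference (9788 with the filter used), 4851 for LPS in macrophages (7921) and 4018 for the difference between LPS effects (6413). Leaving out 1 library gave 9602 to 9688, 7500 to 8012 and 6049 to 6345 calls in this order, and 1432 to 2031 for LPS in osteoclasts (2008). On rescaling to TPM the LPS effect in macrophages reversed for Fam83g (-0.32), Ptpre (-0.13), Arhgap22 (-0.37), Cd9 (-0.5455), Rac2 (-0.04195), Traf6 (-0.06366) and Adgre1 (-0.003279), and the difference for Cd9 (0.4242), Rac2 (0.02222) and Traf6 (0.08024). On quantile normalization the macrophage effect reversed for Arhgap22 (-0.03919), Cd9 (-0.7615), Rac2 (-0.1697) and Adgre1 (-0.33), the difference for Cd9 (0.6095) and Rac2 (0.133), and the mean cell-type difference for Csnk1a1 (0.004988). The median LPS effect over all genes in macrophages was 0.02, and it was -0.55 with TPM and -0.14 with quantile normalization. Higher calls were 62.8% of calls for LPS in osteoclasts, 43.5% with TPM and 38.5% with quantile normalization. For LPS in macrophages they were 52.6%, 18.5% and 37.0%, and for the difference 47.0%, 82.0% and 59.9%. At a mean of 5 FPKM the shares were 64.2% in macrophages and 36.7% for the difference. Libraries with the same replicate number had deviations correlated at -0.0702 to 0.104, and those with unlike numbers at -0.137 to 0.11. Correlations this weak cannot show whether the numbers pair the samples, and the fit used did not pair them. With the replicate block the counts were 9759 for the mean cell-type difference, 7914 for LPS in macrophages, 1930 in osteoclasts and 6422 for the difference, and with voom 9706, 7948, 2410 and 6094 in the same order. All the genes that met the rule numbered 17, against 96 with a pseudocount of 0.1, 64 with TPM, 25 with quantile normalization, 149 with voom and 7 at a mean of 5 FPKM. Without the LPS-treated osteoclast library 2, the difference was 0.46 instead of 0.21 for Adgre1 and 0.57 instead of 0.41 for Nlrp3, and the cause was not tested. Few reads limit Fhl2 and Synpo2 most.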
